A study of Mus musculus with 6 samples.

Results

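The transcripts of 9 transcription factors that set or hold macrophage identity were followed in macrophages with and without AEG-1, the protein of the gene Mtdh. The 9 genes were taken from a list of lineage factors (Spi1, Spic, Cebpa, Cebpb, Maf, Klf4, Id3, Runx1 and Tfec) and matched by symbol to the 46983 Ensembl genes of the count table. All 9 were found, and all 9 passed the filter on low counts that left 16115 genes to test. The cells were bone marrow derived macrophages, grown for 7 days from femoral marrow of C57BL/6 mice with 20% L929 conditioned medium, a source of the growth factor CSF1, and 10% serum, and left untreated. Marrow came from Wild-type (WT) mice and from mice with an AEG-1 knockout (AEG-1 KO, shortened here to KO). Each genotype had 3 libraries, written WT1 to WT3 and KO1 to KO3 by replicate number. The sources used here do not give the age or sex of the mice, how the knockout was made, or in which cells. Nor do they say whether the libraries of a genotype came from separate animals or cultures, so p-values measure only the spread among libraries, possibly a technical one.

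The libraries held 42548170 to 58947230 counts, so that 1 unit of the CPM scale, on which counts are divided by library size, stood for 42.5 to 58.9 reads before scaling. Mtdh transcripts matched the labels, with 254 to 273 CPM in WT and 0.333 to 0.517 CPM in KO. The cells carried macrophage transcripts in both genotypes: Adgre1, which encodes F4/80, stood at 4605 ± 34.0 CPM (SD, n = 3) in WT and 4040 ± 125 CPM in KO. Summed transcripts of 7 T and NK cell markers were at most 0.379 CPM in any library.

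Macrophage identity is built in layers. PU.1, the product of Spi1, opens chromatin at myeloid enhancers together with C/EBPα and RUNX1 in progenitors, and in the mature cell it shares those enhancers with C/EBPβ, MAF proteins and other factors that adapt the cell to its tissue. Maf is known to help hold macrophages out of the cell cycle, Klf4 serves monocyte development and alternative activation, and Spic and Id3 are known from red pulp macrophages of the spleen and Kupffer cells of the liver. Id3 lacks a DNA-binding region and works by capturing E proteins. Tfec belongs to the MiT family of basic helix-loop-helix factors, with Mitf, Tfeb and Tfe3, and is the member largely restricted to macrophages.

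Of the 9 factors, Tfec rose 1.35-fold and Spic fell to 85.6% of its WT level in KO, and the other 7 did not pass the test. The call of Tfec held with any single library left out, and that of Spic was lost with each. Their upstream sequences are shown because these were the only 2 of the 9 to pass. Each run is the 250 bases before the transcription start in RefSeq on GRCm38.p6, 5′ to 3′ on the strand of the gene. The stretch before Tfec spans chr6:16898442-16898691 and that before Spic chr10:88683024-88683273, both on the minus strand. The Spic stretch lies inside the annotated span of the gene (88674772 to 88685015), so its positions refer to the RefSeq start only. Capitals mark matches, on either strand, to the letters GAGGAA (a PU.1 core), AGGAAG (a form of the ETS core added after the sequences were seen), TTGCNNAA (C/EBP), CACGTG (the E-box read by MiT factors), TGTGGT (RUNX) and TGCTGA (part of the MAF recognition element). GAGGAA and AGGAAG can overlap in GAGGAAG.
Tfec: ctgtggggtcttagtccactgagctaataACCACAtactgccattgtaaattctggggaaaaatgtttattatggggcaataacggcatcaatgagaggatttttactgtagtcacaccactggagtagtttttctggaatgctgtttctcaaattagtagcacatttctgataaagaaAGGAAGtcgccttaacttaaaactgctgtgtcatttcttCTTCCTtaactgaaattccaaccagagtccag
Spic: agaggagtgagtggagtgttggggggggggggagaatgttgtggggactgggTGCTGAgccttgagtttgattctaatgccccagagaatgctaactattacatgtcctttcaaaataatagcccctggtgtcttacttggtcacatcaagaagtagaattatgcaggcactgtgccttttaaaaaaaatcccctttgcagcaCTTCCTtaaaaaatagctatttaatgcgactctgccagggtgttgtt

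The Tfec window held 2 matches to AGGAAG, at 66 to 71 bases (same strand) and at 27 to 32 bases (other strand) before the start, and 1 match to TGTGGT at 216 to 221 bases on the other strand. The Spic window held 1 match to AGGAAG at 42 to 47 bases on the other strand and 1 to TGCTGA at 193 to 198 bases. Such letters are common: AGGAAG occurred in 29.5%, TGTGGT in 14% and TGCTGA in 16.1% of the 32851 promoter windows of the same length, and GAGGAA, TTGCNNAA and CACGTG in 23.3%, 9.56% and 6.02%. Of the other members, 5 had an entry. Id3 had 2 matches each to GAGGAA and AGGAAG, Klf4 had 1 to CACGTG, and Cebpa and Cebpb had none. Of the 2 windows of Runx1, 1 had a match to GAGGAA and the other 1 each to CACGTG and AGGAAG. The windows of Id3 and Runx1 also lay wholly or partly inside the annotated span of their gene. The windows differed in base composition, with a GC content of 39.2% before Tfec, 44.8% before Spic and 81.6% before Cebpb.

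Spi1 was the most abundant of the 9 factors. Per kilobase of exon, Spi1 stood at 165 ± 25.4 CPM per kb (SD, n = 3) in WT, Maf at 71.4 ± 3.33, Id3 at 30.2 ± 6.43, Cebpa at 25.4 ± 2.47, Spic at 21.3 ± 0.939 and Cebpb at 13.4 ± 6.44 CPM per kb. Runx1, Tfec and Klf4 closed the order at 5.93 ± 0.480, 2.63 ± 0.0974 and 1.72 ± 0.0882 CPM per kb. The WT libraries of Id3 and Cebpa overlapped on this scale, so their order is not resolved. In KO the order of the means was the same, and there the libraries of Spic and Cebpb overlapped. Against all tested genes, the level of Spi1 per kb exceeded that of 98% and that of Klf4 exceeded that of 32.1%.

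Setting KO against WT asks whether the transcripts of these factors differ in resting macrophages that lack AEG-1. By the edgeR quasi-likelihood test with Benjamini-Hochberg adjustment over all genes, 2 of the 9 were called at an adjusted p under 0.05, 1 higher and 1 lower. The background was 6.35% of the 16115 tested genes, 3.31% higher and 3.04% lower. The 3 KO libraries lay wholly apart from the 3 WT libraries in 6 of the 9 factors, 4 higher and 2 lower, against 26.8% of all tested genes (13.9% higher and 12.9% lower). The median log2 fold change of the 9 factors was -0.01, beside 0.01 over all tested genes. The number of factors called was 4 without WT1 and 1 without WT2, WT3, KO2 or KO3. The number of all genes called, 1023, was 441 without WT2 and 667, 380 and 606 without KO1, KO2 and KO3. In RNA from whole cultures, a smaller number of cells of a type and less RNA per cell cannot be told apart.

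**Figure D1:**
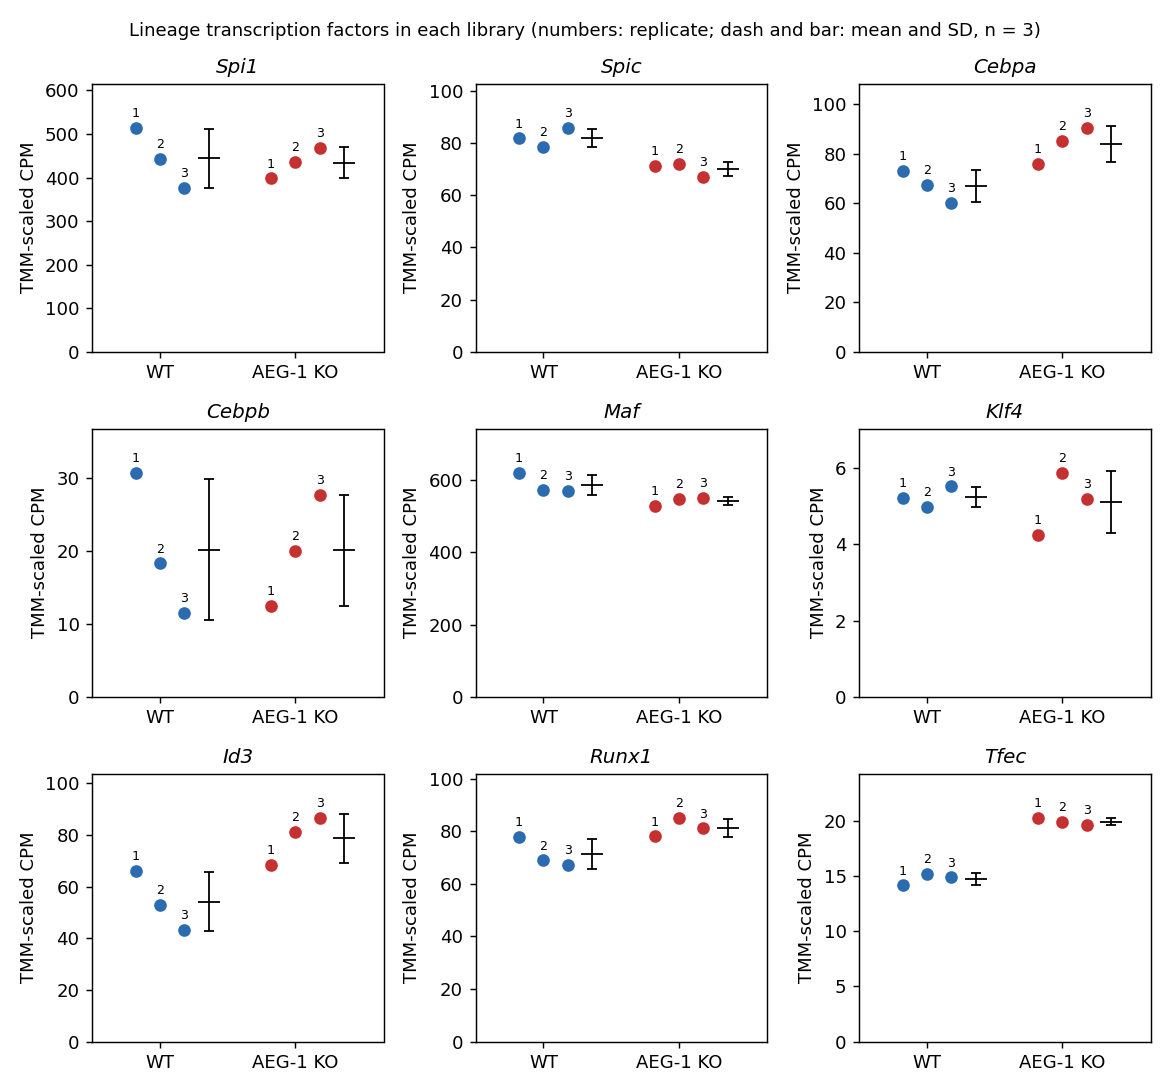
TMM-scaled CPM of each of the 9 factors (linear axes from 0) in each WT (blue) and KO (red) library, numbered by replicate, with the mean (dash) and SD (bar, n = 3). The KO libraries of Tfec, at 19.7 to 20.2 CPM, lie above the WT libraries, at 14.1 to 15.2 CPM, whereas those of Cebpb span 12.5 to 27.7 CPM in KO and 11.5 to 30.6 CPM in WT.

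Tfec rose, and before any correction for length and GC content it had the least spread between libraries of the 9 (pooled SD of log2 CPM 0.04). Tfec (ENSMUSG00000029553, GRCm38 chromosome 6, 16833373 to 16898441, minus strand) had 14.1, 15.2 and 14.9 CPM in WT1 to WT3 and 20.2, 19.9 and 19.7 CPM in KO1 to KO3. Every KO library was above every WT library. The mean went from 14.7 ± 0.545 to 19.9 ± 0.290 CPM (SD, n = 3), 1.35-fold, or a log2 fold change of 0.43 ± 0.06 (SE; adjusted p 0.0028 by edgeR). The call held without each library in turn (adjusted p from 0.00545 to 0.0221 by edgeR). These values rest on 632 to 912 reads per library.

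The genes closest to Tfec in their pattern over the 6 libraries, of 13261 searched, were Apobec1, an RNA-editing enzyme gene, and Mr1, a gene for an antigen-presenting molecule. Likeness was the root mean square difference of log2 CPM after each gene was centred on its own mean, and was 0.02 for Apobec1 and 0.03 for Mr1. Apobec1 lay at 290 to 309 CPM in WT and 402 to 418 CPM in KO. Mr1 lay at 24.9 to 26.9 CPM in WT and 33.8 to 35.6 CPM in KO. Such closeness over 6 libraries of 2 groups is a description.

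Of the ETS factors, Spic was lower in KO, and the level of Spi1 showed no difference that passed the test. Spic (ENSMUSG00000004359, chromosome 10, 88674772 to 88685015, minus strand) encodes a close relative of PU.1 that is induced by heme and drives iron recycling in splenic macrophages. It had 81.7, 78.4 and 85.6 CPM in WT1 to WT3 and 71.2, 72.0 and 67.1 CPM in KO1 to KO3, with no overlap of the groups. The level was 85.6% of WT, a log2 fold change of -0.22 ± 0.05 (SE; adjusted p 0.0336 by edgeR). The call was lost without each of the 6 libraries in turn, at log2 fold changes of -0.26 to -0.20 (adjusted p from 0.0519 to 0.104 by edgeR). Of its 4 annotated transcripts, 1 shares stretches of at least 100 bases at 95% identity with 62 other genes, 56 of them not protein-coding, over 343 of its 1763 bases. The sources used here do not say how reads matching several places were counted, so the value of Spic is uncertain to that extent. The genes closest to Spic in pattern were Eif1ax, a translation initiation factor gene, and Tmem123, at root mean square differences of 0.01 and 0.02.

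Spi1 (ENSMUSG00000002111, chromosome 2, 91082390 to 91115756, plus strand) had 513, 443 and 376 CPM in WT1 to WT3 and 398, 436 and 469 CPM in KO1 to KO3. WT1 held the highest and WT3 the lowest of the 6 values, and all 3 KO libraries fell between them. The mean was 444 ± 68.6 CPM in WT and 434 ± 35.3 CPM in KO (SD, n = 3). The log2 fold change was -0.03, with a 95% interval from -0.26 to 0.20 (adjusted p 0.899 by edgeR). It was 0.07 without WT1 and 0.03 without KO1. These values rest on 16259 to 25926 reads per library.

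Ratios within a library are free of the scaling between libraries, but not of a trend with GC content. The mean ratio of Spic to Spi1 on the log2 CPM scale was -2.43 ± 0.265 in WT and -2.63 ± 0.163 in KO (SD, n = 3), and the groups overlapped (two-sided exact permutation test, p = 0.5; adjusted p = 0.5 over the 3 ratios tested). With 3 libraries against 3, the smallest p this test can give is 0.1. Spic is at 41.8% and Spi1 at 58.9% GC, and the ratio was taken without the length and GC correction described below. With that correction Spic lay at 80.95 to 85.38 CPM in WT and 68.36 to 69.45 CPM in KO. Spi1 then lay at 428 to 471 CPM in WT and 417 to 436 CPM in KO. The ratio of the corrected levels was not tested.

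The 2 C/EBP factors differed in their spread. Cebpa (ENSMUSG00000034957, chromosome 7, 35119293 to 35121928, plus strand), which progenitors need to enter the granulocyte and monocyte lineages, had 73.3, 67.4 and 60.3 CPM in WT1 to WT3 and 76.0, 85.2 and 90.3 CPM in KO1 to KO3. The groups did not overlap, though WT1 and KO1 were close. The log2 fold change was 0.32 ± 0.08 (SE; adjusted p 0.0502 by edgeR), just short of the threshold. It passed without WT1 and without KO1 (adjusted p 0.0198 and 0.0392 by edgeR), and with DESeq2 (adjusted p = 0.00416), but not with limma-voom (adjusted p = 0.0501). Cebpa was called in 9 of the 16 alternative settings, and Spic also in 9 of the 16. The antisense gene Gm45091 overlaps 1.94% of its exon bases and had 2 to 14 reads per library.

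Cebpb (ENSMUSG00000056501, chromosome 2, 167688915 to 167690418, plus strand), an inducible factor of inflammatory and alternatively activated macrophages, had 30.6, 18.3 and 11.5 CPM in WT1 to WT3 and 12.5, 20.0 and 27.7 CPM in KO1 to KO3. Within WT the highest library was 2.65 times the lowest, and within KO 2.22 times. The SD of its log2 CPM within genotypes, 0.64, was larger than that of 99.1% of tested genes. The means were 20.2 ± 9.69 and 20.1 ± 7.61 CPM (SD, n = 3), and the log2 fold change of -0.01 had a 95% interval from -0.78 to 0.77 (adjusted p 0.994 by edgeR). It was 0.40 without WT1 and 0.24 without KO1. Of the exon bases of Cebpb, 20.7% overlap Tmem189 on the other strand, and the sources used here do not say whether strand was used in counting, so its value is uncertain. Tmem189 itself had 4156 to 5854 reads per library. The Cebpb to Cebpa ratio was -1.84 ± 0.563 in WT and -2.13 ± 0.451 in KO on the log2 scale, with overlapping groups (two-sided exact permutation test, p = 0.5; adjusted p = 0.5).

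Maf, an activator of Il10 and of genes of resident macrophages, was abundant and even across libraries. Maf (ENSMUSG00000055435, chromosome 8, 115682942 to 115707794, minus strand) had 620, 574 and 570 CPM in WT1 to WT3 and 530, 547 and 552 CPM in KO1 to KO3. The groups did not overlap, but the difference was small, with a log2 fold change of -0.11 ± 0.04 (SE; adjusted p 0.176, unadjusted p = 0.0301 by edgeR). Gm15655, an antisense gene that covers 5.34% of its exon bases, had 0 reads in every library.

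Id3 and Runx1 lay higher in every KO library without passing the test. Id3 (ENSMUSG00000007872, chromosome 4, 136143497 to 136145755, plus strand) had 66.2, 53.0 and 43.3 CPM in WT1 to WT3 and 68.3, 81.3 and 86.5 CPM in KO1 to KO3. Its log2 fold change of 0.54 was the largest of the 9, with an SE of 0.14 (adjusted p 0.0546 by edgeR). It passed without WT1, at 0.69 (adjusted p 0.0048 by edgeR), and with limma-voom (adjusted p = 0.0488), but not with DESeq2 (adjusted p = 0.0755).

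Runx1 (ENSMUSG00000022952, chromosome 16, 92601466 to 92826149, minus strand), which with its partner Cbfb starts definitive blood formation and binds the Spi1 enhancer, had 77.9, 68.9 and 67.2 CPM in WT1 to WT3 and 78.0, 84.9 and 81.0 CPM in KO1 to KO3. WT1 and KO1 were nearly equal. The log2 fold change was 0.19 ± 0.06 (SE; adjusted p 0.12 by edgeR), and of 16 alternative settings it passed only without WT1 (adjusted p 0.0298 by edgeR). The antisense gene Gm26626 overlaps 0.881% of its exon bases and had 5 to 16 reads per library.

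Klf4 (ENSMUSG00000003032, chromosome 4, 55527143 to 55532466, minus strand) was the scarcest of the 9, with 192 to 292 reads per library. It had 5.21, 4.99 and 5.53 CPM in WT1 to WT3 and 4.26, 5.87 and 5.20 CPM in KO1 to KO3. The KO libraries lay on both sides of the WT libraries. The log2 fold change was -0.04, with a 95% interval from -0.31 to 0.24 (adjusted p 0.907 by edgeR), and it was 0.08 without KO1.

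**Figure D2:**
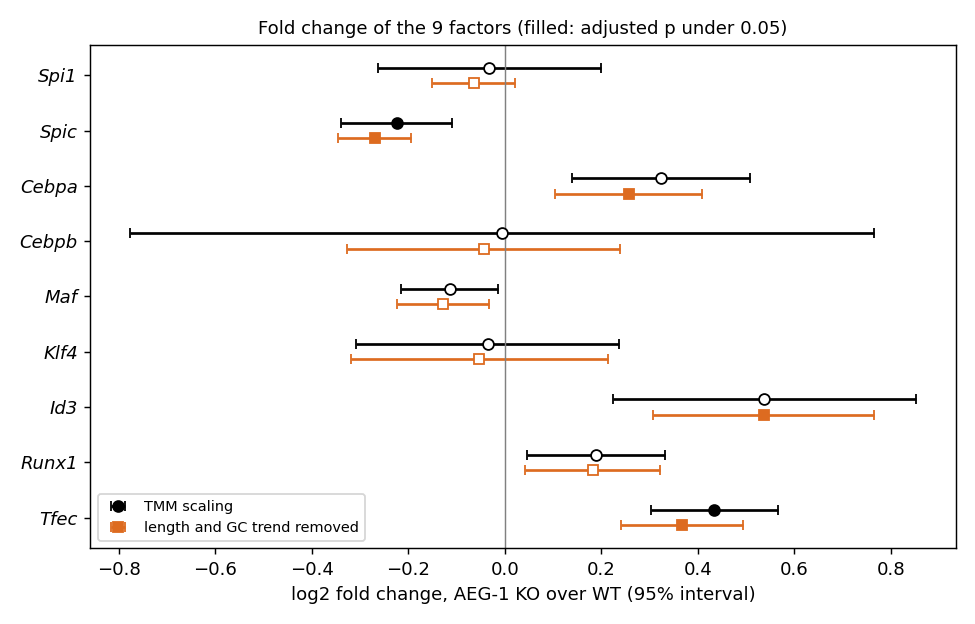
Log2 fold change (KO over WT) of the 9 factors with its 95% interval, from the fit with TMM scaling (black circles) and from the fit corrected for gene length and GC content (orange squares); filled symbols have an edgeR adjusted p under 0.05. The interval of Cebpb runs from -0.78 to 0.77 in the first and from -0.33 to 0.24 in the second.

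Several of the factors differed between libraries of a genotype in the same way as other transcripts of high GC content. Among the 525 tested genes with at least 60% GC in their longest transcript, the median deviation of log2 CPM from the genotype mean was 0.24 in WT1 and -0.24 in WT3. It was -0.15 in KO1 and 0.14 in KO3. Cebpb, at 67.2% GC, deviated by 0.72 and -0.69 in WT1 and WT3 and by -0.61 and 0.54 in KO1 and KO3. Spi1, at 58.9% GC, deviated by 0.22 and -0.23 in WT1 and WT3, and by -0.12 and 0.11 in KO1 and KO3. Tfec and Spic, at 40.3% and 41.8% GC, deviated by at most 0.06 in any library.

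**Figure D3:**
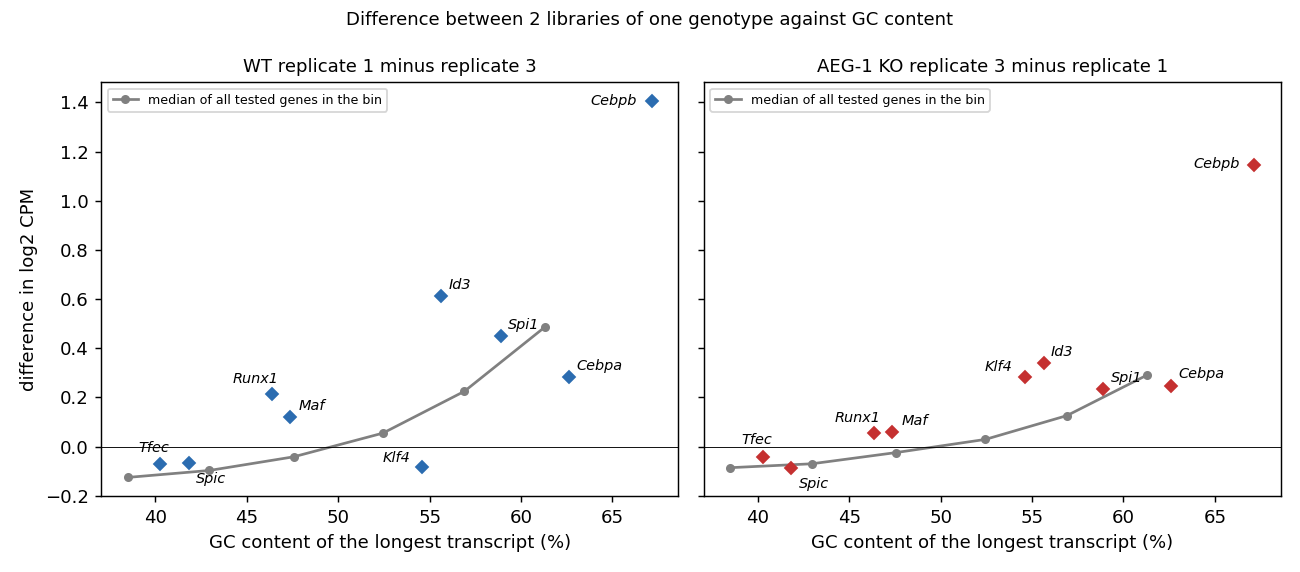
Difference in log2 CPM between 2 libraries of a genotype against the GC content (%) of the longest transcript: WT1 minus WT3 (left) and KO3 minus KO1 (right). Diamonds are the 9 factors and the grey line joins the difference of the bin medians over all tested genes; Cebpb, at 67.2% GC, lies highest in both panels.

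When each library was corrected by a smooth curve over gene length and GC content, the spread of Spi1 and Cebpb narrowed. Spi1 then lay at 428 to 471 CPM in WT and 417 to 436 CPM in KO, with a 95% interval of its log2 fold change from -0.15 to 0.02 (adjusted p 0.306 by edgeR). Cebpb lay at 16.1 to 20.9 CPM in WT and 16.5 to 22.7 CPM in KO, with a log2 fold change of -0.04 ± 0.13 (SE; adjusted p 0.866 by edgeR). The pooled SD of log2 CPM fell from 0.18 to 0.06 for Spi1 and from 0.64 to 0.23 for Cebpb, but was slightly higher than before for Maf, Tfec, Runx1 and Klf4. With the correction, this SD was 0.0284 for Spic and 0.0551 for Spi1, both below the 0.0631 of Tfec.

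In that fit 4 of the 9 factors were called, against 14.5% of all tested genes. Id3, at a log2 fold change of 0.54, and Cebpa, at 0.26, joined the called factors (adjusted p 0.00701 and 0.0329 by edgeR). Spic stood at -0.27 ± 0.03 and Tfec at 0.37 ± 0.06 (SE; adjusted p 0.000641 and 0.00202 by edgeR). Maf and Runx1 stayed short of the threshold (adjusted p 0.0741 and 0.0842 by edgeR). The share of called genes on the higher side was 42.5% in this fit and 52.1% without the correction.

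**Figure D4:**
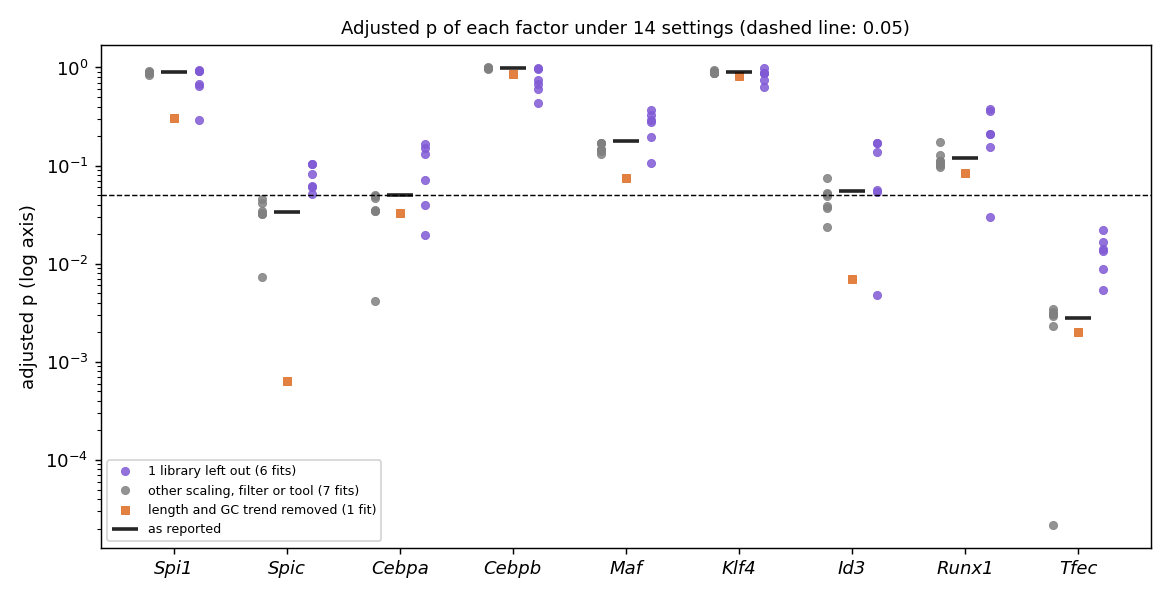
Adjusted p (log axis) of each of the 9 factors as reported (dash), with other scalings, filters or tools (grey), with the length and GC correction (orange square) and with each library left out in turn (purple); the dashed line is 0.05. The 14 alternatives drawn for Tfec lie below the line, the purple points of Spic lie above it, and those of Cebpa and Id3 lie on both sides. Fits with replicate number as a block are not drawn. In these, Tfec had an adjusted p of 0.0523 by edgeR with the block alone, and 0.0231 with block and correction.

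Among 58 other transcription factors of myeloid lineages, 56 were tested, and 5 rose and 2 fell, or 12.5% called against 6.35% of all tested genes. Gata1 and Gata6 did not pass the filter on low counts. The median log2 fold change was 0.08, beside 0.01 over all genes. Spib, an ETS factor of B cells and plasmacytoid dendritic cells, had the largest change of the 56. It fell, with means of 6.83 ± 0.341 CPM in WT and 3.38 ± 0.160 CPM in KO (SD, n = 3) and a log2 fold change of -1.02 ± 0.09 (SE; adjusted p 0.000374 by edgeR). Ets2 fell by 0.27 on the log2 scale (adjusted p 0.0133 by edgeR; 0.0653 without KO2).

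Mitf, a relative of Tfec in the MiT family, rose, with means of 61.1 ± 2.28 CPM in WT and 70.5 ± 2.29 CPM in KO (SD, n = 3) and a log2 fold change of 0.21 ± 0.05 (SE; adjusted p 0.0389 by edgeR). The calls of Mitf and of Mef2c, a MADS-box factor with a log2 fold change of 0.27 (adjusted p 0.0475 by edgeR), were lost without WT1, WT2 or any of the 3 KO libraries (adjusted p from 0.0645 to 0.218 by edgeR). With all libraries, both calls were also lost with upper-quartile scaling, no scaling factors or no filter, and that of Mef2c with RLE scaling (adjusted p from 0.0514 to 0.0824 by edgeR). Bhlhe40, a repressor that supports macrophage proliferation, rose from 9.51 ± 0.851 to 15.4 ± 1.07 CPM (SD, n = 3; adjusted p 0.0019 by edgeR). Klf10, a zinc finger factor downstream of TGF-beta, rose by a log2 fold change of 0.22 (adjusted p 0.0172 by edgeR). Its call was lost without WT2, KO1 or KO2 (adjusted p 0.0979, 0.0607 and 0.127 by edgeR). Nr4a1, an orphan nuclear receptor needed by patrolling monocytes, rose by 0.54 on that scale (adjusted p 0.0311 by edgeR). Its call was lost without WT2 or any KO library (adjusted p from 0.0577 to 0.119 by edgeR).

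**Figure D5:**
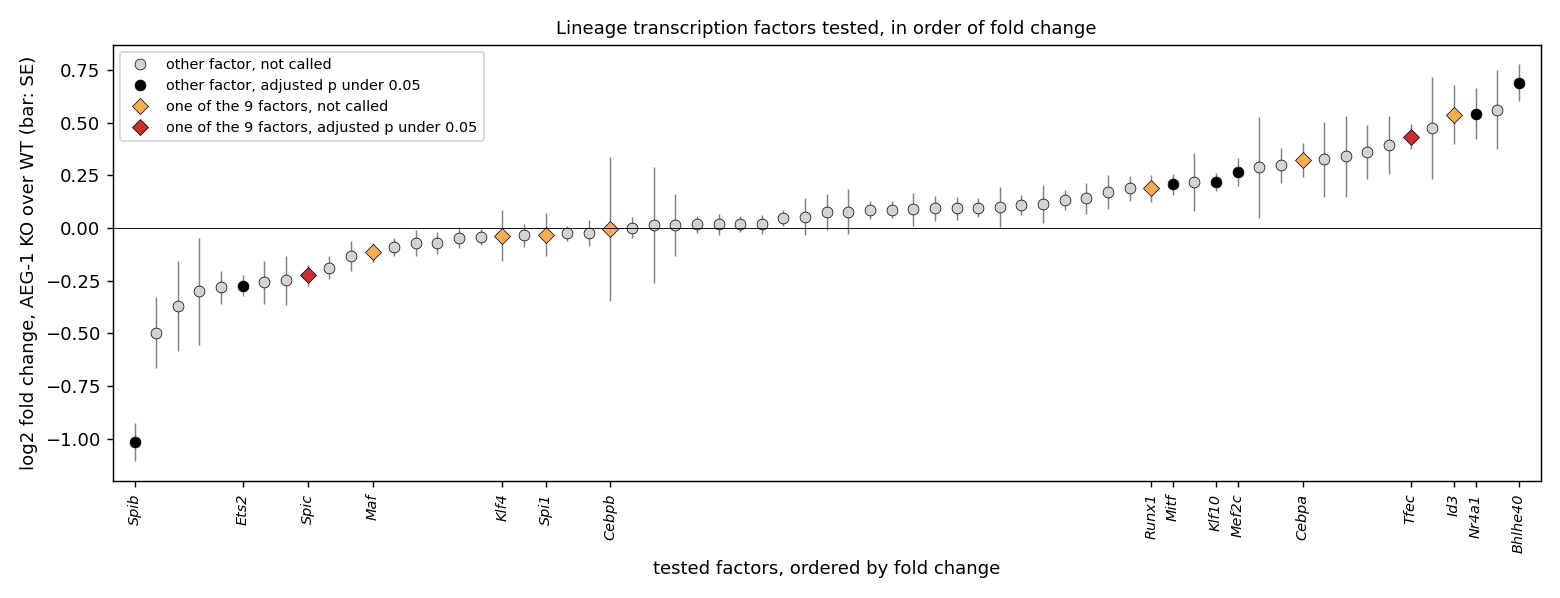
Log2 fold change (KO over WT; bar, SE) of the 65 tested lineage transcription factors in order, with names under the called factors and the 9, the 9 factors as diamonds and calls at an edgeR adjusted p under 0.05 in black (other factors) or red. Spib lies lowest at -1.02 and Bhlhe40 highest at 0.69, and Tfec and Spic are the 2 red diamonds.

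Genes known as targets or companions of these factors changed in both directions. Of 28 PU.1 targets, all tested, 4 rose and 3 fell, or 25% against 6.35% of all tested genes, with a median log2 fold change of 0.01. Csf1r, the CSF1 receptor, rose from 1941 ± 64.8 to 2526 ± 39.7 CPM (SD, n = 3; adjusted p 0.000919 by edgeR), Cd14 by a log2 fold change of 0.35 and Fcgr3 by 0.39 (adjusted p 0.0016 and 0.00552 by edgeR). Others, named after their values were seen, were Ctss, which rose by 0.28, and Fcer1g and Adgre1, which fell by 0.28 and 0.19 on the log2 scale. Each of these lost its call without KO2 (adjusted p 0.0653, 0.0763 and 0.125 by edgeR). So did Fcer1g without WT2 or KO1 (adjusted p 0.0883 and 0.0579 by edgeR), and Adgre1 without WT2 or KO3 (adjusted p 0.078 and 0.0763 by edgeR).

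Of 9 genes tied to Spic and iron-recycling macrophages, 2 rose and none fell (22.2% called against 6.35%; median log2 fold change -0.02). Slc40a1, the iron exporter ferroportin, had 93.2, 91.9 and 91.1 CPM in WT and 159, 178 and 179 CPM in KO1 to KO3 (adjusted p 3.71e-05 by edgeR). Vcam1, an adhesion molecule known as a Spic target in red pulp macrophages, had 22.4, 22.6 and 22.5 CPM in WT and 33.9, 39.5 and 37.1 CPM in KO (adjusted p 0.000374 by edgeR). Both were higher in every KO library, whereas Spic was lower in every one. Hmox1, the heme oxygenase, and Bach1, the repressor through which heme is known to control Spic, had log2 fold changes of -0.08 ± 0.05 and 0.05 ± 0.04 (SE; adjusted p 0.459 and 0.527 by edgeR), and were named after their values were seen.

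Of 16 genes tied to Maf, 7 rose and 1 fell (50% called against 6.35%; median log2 fold change 0.22). Slc40a1 is also in this list. Selenop, a selenium carrier, Mrc1, the mannose receptor, and Mertk, a receptor for dying cells, rose by log2 fold changes of 0.43, 0.42 and 0.39 (adjusted p 0.0007, 0.00117 and 0.00101 by edgeR). The fall was that of Il10, named after its value was seen, which went from 41.8 ± 1.41 to 26.9 ± 3.01 CPM (SD, n = 3; adjusted p 0.00169 by edgeR).

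Of 18 C/EBP target genes, 16 were tested, and 5 rose and 1 fell. That was 37.5% called against 6.35% of all tested genes, with a median log2 fold change of 0.22. Ltf, a neutrophil granule gene, Chil3, a chitinase-like secreted protein gene, and Il13ra1, an IL-4 and IL-13 receptor subunit gene, rose by 0.62, 0.47 and 0.47 on the log2 scale (adjusted p 0.00252, 0.00719 and 0.0104 by edgeR). Cd14 and Camp were the others that rose and Lcn2 the gene that fell, the last 2 named after their values were seen. Il13ra1 lost its call without WT2 or KO2 (adjusted p 0.0601 and 0.0642 by edgeR). Lcn2 lost its call without WT2, KO2 or KO3 (adjusted p from 0.0501 to 0.0682 by edgeR), and Camp without each of the 6 libraries in turn (adjusted p from 0.051 to 0.0782 by edgeR).

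Of 13 MiT family target genes, 10 were tested, and 2 rose and 1 fell. That was 30% called against 6.35% of all tested genes, with a median log2 fold change of 0.07. Dcstamp, which encodes a protein of osteoclast fusion, had 0.0895, 0.0171 and 0.162 CPM in WT and 0.799, 0.798 and 0.96 CPM in KO1 to KO3 (adjusted p 0.0016 by edgeR), levels under 1 CPM throughout. Acp5, the tartrate-resistant acid phosphatase, fell by 0.37 and Atp6v0d2, a proton pump subunit gene, rose by 0.42 on the log2 scale (adjusted p 0.00596 and 0.0224 by edgeR). Atp6v0d2 lost its call without WT2, KO2 or KO3 (adjusted p 0.102, 0.115 and 0.0809 by edgeR).

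Markers of other cell types moved with genotype in these libraries, and their part in the changes of Tfec, Spic and the target genes was not tested. Of 12 neutrophil markers, 6 rose and 1 fell, or 58.3% called against 6.35% of all tested genes. Ngp rose by a log2 fold change of 0.65 (adjusted p 0.0016 by edgeR). The summed level of the 12 was 450 to 459 CPM in WT and 507 to 556 CPM in KO. Csf3r, which was not called, had the largest part in it, with means of 243 CPM in WT and 256 CPM in KO. Of 15 monocyte and progenitor markers, 10 were tested, and 4 rose and 1 fell, or 50% called against 6.35%. Of the 10, 8 had a positive and 2 a negative log2 fold change (median 0.51). The summed level of the 15 was 154.5 to 160.9 CPM in WT and 155.9 to 162 CPM in KO. Spn and Cx3cr1, the 2 with negative changes, had the largest parts in it. Their means were 70.0 and 42.3 CPM in WT and 56.1 and 37.5 CPM in KO. Ccr2 rose by a log2 fold change of 0.67 (adjusted p 0.000492 by edgeR), while the progenitor markers Mpo, Elane, Ctsg, Flt3 and Ms4a3 did not pass the filter on low counts. Of 14 stromal and endothelial markers, 11 were tested and 5 rose, or 45.5% called against 6.35%. Col1a2 rose by a log2 fold change of 0.94 (adjusted p 0.00412 by edgeR). The summed level of the 14 was 11.4 to 18.6 CPM in WT and 19.4 to 23.9 CPM in KO.

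The lists of B cell, dendritic cell, mast cell and basophil, and erythroid markers held few or no calls. Pax5 alone rose of 5 tested of 7 B cell markers, from 0.508 ± 0.0336 to 1.19 ± 0.0306 CPM (SD, n = 3; adjusted p 0.00356 by edgeR). That was 20% of the tested B cell markers, against 6.35% of all tested genes. The B cell markers summed to 36.6 to 40.1 CPM in WT and 36.3 to 42 CPM in KO. None of 6 tested dendritic cell, 3 mast cell and basophil or 1 erythroid marker was called by edgeR, DESeq2 or limma-voom, and 1, 0 and 0 of these had an unadjusted p under 0.05. In WT the 9 dendritic cell markers summed to 7.76 to 10.97 CPM, the 7 mast cell and basophil markers to 1.23 to 1.34 CPM and the 8 erythroid markers to 0.359 to 0.761 CPM. In KO these sums were 6.30 to 9.35, 1.54 to 1.73 and 0.603 to 0.916 CPM, and Hba-a2 and Mcpt8 had 0 reads in every library. Of 12 macrophage markers, 4 rose and 1 fell, among them Csf1r and Adgre1, or 41.7% called against 6.35%. The summed level of the 12 was 19090 to 19630 CPM in WT and 19730 to 20340 CPM in KO.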

How the data were processed

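RNA of bone marrow derived macrophages was measured by RNA-seq in 6 libraries. The deposited table holds raw counts of reads per Ensembl gene in each library. Per the submitters' processing notes, the tools of the authors were cutadapt 1.9, edgeR 3.18.1, featureCounts 1.4.6-p4, FastQC 0.11.2 and Subread, with builds named mm10 and GRCm38. Strand use and the handling of multiply matching reads are not stated there. Of 46983 gene identifiers, 46488 were matched to a symbol, and positions come from GENCODE M21 on GRCm38.

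Counts were filtered with filterByExpr, scaled by TMM and tested with edgeR 4.0.16 (glmQLFit and glmQLFTest, R 4.3.3) on the 3 libraries of each genotype, with Benjamini-Hochberg adjustment over 16115 genes and a call at an adjusted p under 0.05. CPM use TMM-scaled library sizes, and levels per kilobase use merged exon length. Alternatives were other scalings and filters, DESeq2 1.42.0, limma-voom (limma 3.58.1), correction of each library by a smooth curve over gene length and GC content (mgcv 1.9.3), and each library left out in turn. A block for replicate number was also added to the edgeR fit, with and without that correction. The scripts were tested on simulated counts. Near copies were searched with BLAST 2.17.0. Beyond the 9, the text names the called genes of each list with the smallest adjusted p, up to 4, or up to 10 for lineage factors, and for each called member the 2 genes of at least 1 CPM with the closest pattern. Others are said to be named after their values were seen. Results for some listed genes are not reported here. The members and lists were chosen with earlier results of these data known.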

Additional observations from a re-analysis of the deposited data

How the results depend on the processing

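The number of genes changed was 2330 with the length and GC trend removed, 227 with a replicate block, and 380 to 1094 with a library left out. The number of the 9 factors changed was 4 with upper-quartile scaling, with no scaling factors, with no filter and with the trend removed, and 1 to 4 with a library left out; with the block, edgeR called 0 of the 9 (5 at an unadjusted p under 0.05), and DESeq2 and limma-voom without the block called 3 each. With block and trend removal together, 1044 genes and 3 factors were called. The sources used here do not say whether replicate numbers pair these samples. For deviations from the genotype mean, the correlations of same-numbered libraries were -0.27, -0.17 and -0.25. Those of WT and KO libraries with different numbers were 0.06 to 0.19. Centring within a genotype makes these values depend on one another, so they do not settle the pairing. Directions reversed only among factors with no call. With libraries left out, Spi1 ranged from -0.14 to 0.0721, Cebpb from -0.32 to 0.40 and Klf4 from -0.15 to 0.0798 on the log2 scale; Cebpb was 0.0287 with limma-voom and 0.0289 with the block. Of 144 alternative values of the 9 factors, 112 kept direction and side of the threshold, 8 lost the call, 17 gained it and 7 reversed. The cause of these changes was not tested. Klf4 had the fewest reads of the 9, with 192 to 292 per library.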

Other observations

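Other factors, named after their values were seen, showed the same order of libraries within each genotype as Cebpb. Cebpd, a C/EBP factor induced in acute inflammation, had 33.4, 19.2 and 15.2 CPM in WT1 to WT3 and 16.1, 24.0 and 28.2 CPM in KO1 to KO3. Id1, a relative of Id3, had 17.97, 12.4 and 10.7 CPM in WT and 13.5, 18.5 and 20.0 CPM in KO. In both, WT1 was the highest WT library and KO1 the lowest KO library, and neither was called (adjusted p 0.987 and 0.346 by edgeR). Removal of the length and GC trend moved their pooled SD of log2 CPM little, from 0.51 to 0.49 for Cebpd, at 51.6% GC, and from 0.34 to 0.30 for Id1, at 54.7% GC.

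For Tfeb, an MiT factor of lysosome genes at 63.2% GC, the same SD went from 0.24 to 0.08. Tfeb had 23.3, 17.7 and 15.7 CPM in WT1 to WT3 and 19.7, 21.7 and 24.5 CPM in KO1 to KO3, with overlapping groups.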
